A study of Mus musculus with 12 samples.

Results

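The genes described here are Srebf1, which encodes the transcription factor SREBP1, and 7 genes of enzymes that supply, make or modify fatty acids: Acly, Me1, Acaca, Fasn, Elovl6, Scd1 and Scd2. They were chosen by symbol, matched from the Ensembl gene IDs of the count tables, and are 8 of the 57180 gene IDs counted in each library. All 8 passed the filter on low counts, which left 17163 genes for testing. The libraries came from kidney of 12 male C57BL/6J mice that were 60 days old when the experiment started, with 4 mice in each of 3 groups. Each mouse received an intraperitoneal injection once a day for 28 days. The control group received the vehicle, saline with Tween 80, which the CBD solutions also held, and the treated groups received cannabidiol (CBD), a cannabinoid of Cannabis sativa, at 10 or 20 mg/kg b.w. (10CBD and 20CBD). RNA was taken from small pieces of kidney, and neither the part of the kidney nor the hour of collection is given in the sources used here. In such bulk RNA, fewer cells of a type and less RNA per cell cannot be told apart.

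SREBP1 is made as a membrane-bound precursor in the endoplasmic reticulum. The escort protein SCAP carries it to the Golgi apparatus, INSIG proteins hold it back, and a released fragment enters the nucleus and switches on genes of fatty acid synthesis, often together with the factor NF-Y. In the pathway, citrate leaves mitochondria and is split by ATP citrate lyase (Acly) into acetyl-CoA. Acetyl-CoA carboxylase (Acaca) turns acetyl-CoA into malonyl-CoA, and fatty acid synthase (Fasn) builds palmitate from both with NADPH, part of which malic enzyme (Me1) supplies. Elovl6 lengthens palmitate to stearate, and the desaturases Scd1 and Scd2 introduce a double bond. The pathway is best known from liver and fat, and in the kidney excess activity of SREBP1 has been linked to lipid accumulation.

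By edgeR, 1 of the 8 genes passed the test in any comparison, a call that was lost in 9 of 12 fits that each left out 1 library. It was made at 20 mg, where 0.303% of all genes tested were called. DESeq2 called 4 of the 8 at 20 mg, all lower, against 0.484% of all genes. In edgeR, Fasn fell at 20 mg CBD/kg b.w. to a mean of 39.7 CPM (read counts scaled to a common library total) from 84.5 CPM in the control group. Acaca, Scd1 and Acly were also lower in each of the 4 20CBD mice than in any control mouse, without passing the edgeR test across all genes. Lower 20CBD groups without overlap were seen for 2.63% of all genes. Srebf1, Scd2, Elovl6 and Me1 had overlapping groups at both doses. Of 9 adipocyte markers tested, 0 were called, and their median log2 fold changes of -1.68 at 10 mg and -3.02 at 20 mg are taken up beside the results.

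The libraries held 15417867 to 23532088 reads counted on genes, with a median of 20390000.5 in the control group. No pair of libraries was identical. Mitochondrially encoded genes took from 3.53% to 23.4% of the counts, and under 10% in 4 libraries (Control 2, 10CBD 1, 10CBD 3 and 20CBD 3). The kidney marker Umod, of the thick ascending limb, was present in every library at 384 to 798 CPM. Each library is 1 mouse per the labels, and p-values measure the spread between these mice.

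Promoter sites are shown first, since SREBP1 acts through such letters and the 8 genes are grouped as its pathway. The promoter was taken as 250 bases before to 50 bases after the first base of the canonical transcript (GENCODE vM39, GRCm39), and positions count from that base as 1. The sterol regulatory element was searched as TCACNCCAC on both strands and was found in 2 of 8 promoters, Fasn and Acaca, against 1.34% of 21685 promoters of protein-coding genes. Its 2 matches are printed below in capitals with 10 bases on each side, followed by the stretch of the Scd1 promoter that holds 2 CCAAT boxes, the letters NF-Y binds.
Fasn, chr11:120715063-120715091, minus strand: cgcgcgggcaTCACCCCACcggcggcggc
Acaca, chr11:84063840-84063868, plus strand: acaggcacacTCACACCACaccctgggtg
Scd1, chr19:44396350-44396417, minus strand: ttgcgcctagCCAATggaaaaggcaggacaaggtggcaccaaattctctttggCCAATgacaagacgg

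The Fasn match lies at -146 to -138 from the canonical start, inside an annotated exon of other Fasn transcripts. The Acaca match lies at -98 to -90, in a stretch of CA repeats within an intron of longer Acaca transcripts. The Scd1 boxes lie at -67 to -63 and -24 to -20, within the annotated span of the gene and outside its exons. CCAAT, on either strand, was found in 3 of 8 promoters (Fasn, Scd1 and Acly) against 39.97% of all promoters. The E-box CACGTG was found in 1 of 8, in Acaca at -157 to -152, against 7.84%, and the GC box GGGCGG in 4 of 8 against 42.5%. None of these 4 motifs was found in the windows of Scd2 and Elovl6. These matches describe letters only, since binding was not measured.

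Levels are given as CPM scaled by TMM factors, which correct for differences in RNA composition between libraries. Divided by the annotated exon length, the control means ranged from 79.3 ± 13.4 CPM per kb (SD, n = 4) for Me1 to 1.76 ± 0.48 for Acaca. Between them stood Scd1 at 33.6 ± 10.9, Acly at 8.98 ± 1.09, Fasn at 7.22 ± 2.92, Scd2 at 5.03 ± 1.21, Srebf1 at 3.91 ± 0.88 and Elovl6 at 3.62 ± 0.33 CPM per kb. From Acly to Elovl6, each neighbour in this order differed from the next by less than the larger of their SDs. In the 20CBD group Fasn, at 3.39 ± 0.13 CPM per kb, stood below Elovl6 (3.63 ± 0.25) and Scd2 (3.58 ± 0.44), again within their spread. Exon length counts every annotated transcript of a gene, so a gene with many transcripts has a lower value on this scale.

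**Figure D1:**
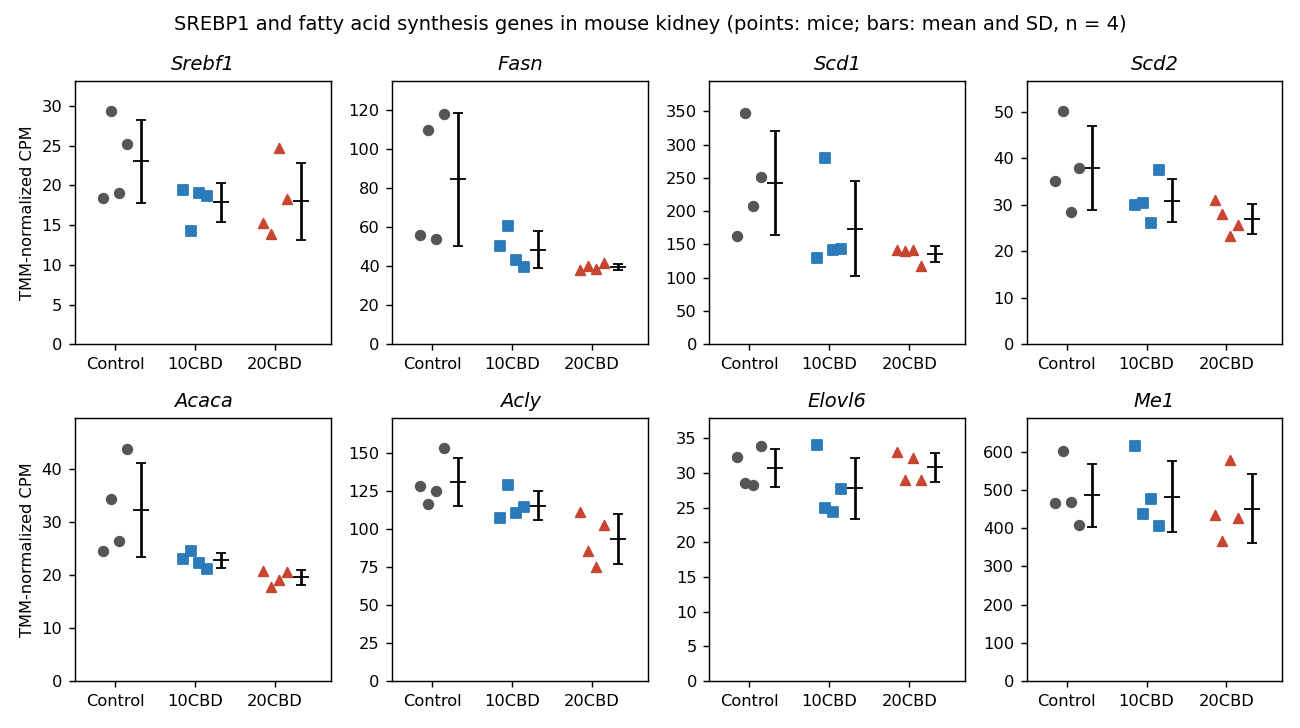
TMM-normalized CPM (vertical axes, starting at 0) of the 8 genes in the control, 10CBD and 20CBD groups. Points are mice and bars are the mean and SD of 4 mice. The 4 20CBD mice lie below all 4 control mice for Fasn, Scd1, Acaca and Acly, and Fasn lies between 38.2 and 41.5 CPM in 20CBD.

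Srebf1 (chromosome 11, 60089913 to 60113407, minus strand, GRCm39) encodes the regulator itself, and gene counts do not separate its SREBP1 isoforms. Its level was 18.5, 29.3, 19.1 and 25.3 CPM in the 4 control mice, 19.5, 14.3, 19.0 and 18.7 CPM in 10CBD and 15.2, 13.8, 24.8 and 18.3 CPM in 20CBD. The groups overlapped, with 20CBD 3 among the higher control mice and 10CBD 2 apart from the other 10CBD mice. The log2 fold change was -0.36 (SE 0.20, 95% interval -0.78 to 0.05) at 10 mg and -0.35 (SE 0.20, interval -0.77 to 0.06) at 20 mg. Neither passed the test, with edgeR adjusted p of 0.872 and 0.678. Without Control 2 the values were -0.23 and -0.22, and without 20CBD 3 the 20 mg value was -0.54. Between 20CBD and 10CBD the difference was 0.011, with an interval of -0.41 to 0.43. Exons of Srebf1 share 114 bases with Rai1 on the opposite strand, and whether counting used the strand is not given in the sources used here.

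Acly (chromosome 11, 100367165 to 100440756, minus strand) supplies cytosolic acetyl-CoA. Its level was 129, 117, 125 and 154 CPM in control mice, 108, 129, 110 and 114 CPM in 10CBD and 111, 85.4, 74.7 and 103 CPM in 20CBD. The 20CBD mice lay below the control mice without overlap, and 10CBD overlapped with both. Against control, the log2 fold change was -0.18 (interval -0.48 to 0.11) at 10 mg and -0.49 (SE 0.14, interval -0.78 to -0.19) at 20 mg, where the edgeR adjusted p was 0.312. Between 20CBD and 10CBD it was -0.30 (interval -0.60 to -0.0099) with an edgeR adjusted p of 0.782.

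Me1 (chromosome 9, 86462646 to 86578104, minus strand), a source of NADPH, was measured at 466, 602, 469 and 407 CPM in control mice. In 10CBD it stood at 614, 436, 475 and 405 CPM and in 20CBD at 433, 367, 578 and 426 CPM. The highest mouse of each group (Control 2, 10CBD 1 and 20CBD 3) was at 578 to 614 CPM, and each of these 3 libraries had under 10% mitochondrial counts. The log2 fold change was -0.010 (interval -0.38 to 0.36) at 10 mg and -0.11 (interval -0.48 to 0.27) at 20 mg, with edgeR adjusted p of 0.995 and 0.920. Its exons share 2146 bases with Rwdd2a on the opposite strand, but Rwdd2a had 233 reads over all libraries against 109134 for Me1.

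Acaca (chromosome 11, 84020476 to 84292477, plus strand) makes malonyl-CoA. Its level was 24.6, 34.3, 26.4 and 43.9 CPM in control mice, 23.1, 24.6, 22.4 and 21.1 CPM in 10CBD and 20.8, 17.8, 19.1 and 20.7 CPM in 20CBD. The 20CBD mice lay below every control mouse and every 10CBD mouse, while only the highest 10CBD value reached the control range. On the log2 scale the difference from control was -0.50 (SE 0.16, interval -0.85 to -0.16) at 10 mg and -0.72 (SE 0.16, interval -1.07 to -0.37) at 20 mg. The edgeR adjusted p was 0.796 and 0.127, so neither was called, and without Control 4 the 10 mg value was -0.32. Between the doses the difference was -0.22 (interval -0.56 to 0.13).

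Fasn (chromosome 11, 120696672 to 120715995, minus strand) carries out the synthesis of palmitate. Its level in control mice was 56.1, 110, 54.1 and 118 CPM, a pair of high and a pair of low values. It was 50.3, 60.8, 43.3 and 39.7 CPM in 10CBD and 38.2, 40.2, 38.7 and 41.5 CPM in 20CBD. The 20CBD values were the closest together, with a coefficient of variation of 3.71% against 40.4% in the control group, and lay below all control mice. The 20CBD libraries held 646 to 735 Fasn reads each, and counting error was not taken out of this spread. At 20 mg the log2 fold change was -1.09 (SE 0.23, interval -1.58 to -0.60) and passed the test with an edgeR adjusted p of 0.0924. At 10 mg it was -0.80 (SE 0.23, interval -1.29 to -0.31), with an unadjusted p of 0.0032 and an adjusted p of 0.796 from edgeR. There the exact two-sided permutation p was 0.114, and the groups overlapped through 10CBD 2. Between the doses the difference was -0.29 (interval -0.78 to 0.20), which was not called. The call at 20 mg lay near the threshold of 0.1. It remained in 3 of 12 fits that each left out 1 library (Control 1, Control 3 or 10CBD 2) and was lost in the other 9, where the adjusted p reached 0.319.

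Elovl6 (chromosome 3, 129326004 to 129432144, plus strand), the elongase that acts on palmitate, was measured at 32.3, 28.6, 28.2 and 33.9 CPM in control mice, 34.0, 25.0, 24.4 and 27.7 CPM in 10CBD and 33.1, 29.0, 32.1 and 29.0 CPM in 20CBD. All groups overlapped, and the log2 fold change was -0.15 (interval -0.42 to 0.13) at 10 mg and 0.0026 (interval -0.27 to 0.27) at 20 mg, and the edgeR adjusted p was 0.914 and 0.998.

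Scd1 (chromosome 19, 44382894 to 44399154, minus strand) and Scd2 (chromosome 19, 44281613 to 44295303, plus strand) are desaturase genes of similar sequence. Scd4 lies between them. Reads that align to several places were set apart by the counting program, so a part of their reads may be missing. Scd1 was 163, 347, 208 and 251 CPM in control mice, 129, 280, 142 and 143 CPM in 10CBD and 141, 140, 142 and 118 CPM in 20CBD. All 20CBD mice were below the lowest control mouse, and 10CBD 2 stood far above the other 10CBD mice. The log2 fold change of Scd1 was -0.48 (SE 0.25, interval -1.01 to 0.04) at 10 mg and -0.84 (SE 0.25, interval -1.37 to -0.31) at 20 mg, with edgeR adjusted p of 0.871 and 0.342. The 10 mg value was -0.82 without 10CBD 2, -0.26 without Control 2 and 0.025 without the 4 libraries of low mitochondrial share. Scd2 was 35.1, 50.1, 28.4 and 38.0 CPM in control mice, 29.9, 30.3, 26.1 and 37.4 CPM in 10CBD and 30.9, 28.1, 23.2 and 25.6 CPM in 20CBD. Its groups overlapped, and the log2 fold change was -0.29 (interval -0.65 to 0.06) at 10 mg and -0.49 (SE 0.17, interval -0.85 to -0.13) at 20 mg, where the edgeR adjusted p was 0.420. Without Control 2 these were -0.13 and -0.33. The 10 mg value was -0.0013 without the 4 libraries of low mitochondrial share and -0.16 with the adipocyte marker level as a covariate.

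**Figure D2:**
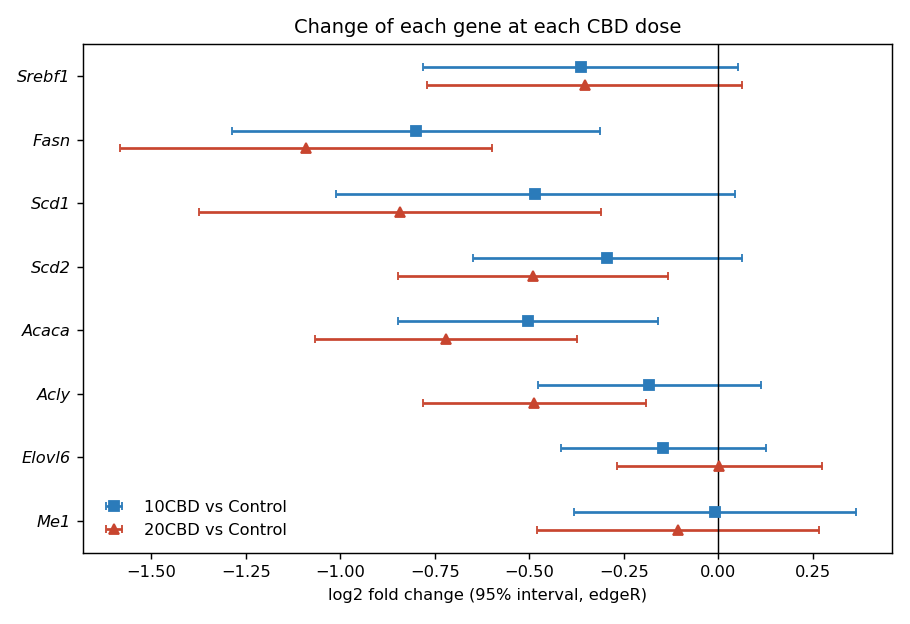
Log2 fold change of each gene against the control group, with 95% intervals from the edgeR fit, for 10CBD (squares) and 20CBD (triangles). At 20 mg the intervals of Fasn, Scd1, Scd2, Acaca and Acly lie below 0, and those of Srebf1, Elovl6 and Me1 include 0.

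At 10 mg CBD/kg b.w., 0 of the 8 genes was called at an edgeR adjusted p under 0.1, against 0.0291% of all genes tested (5 of 17163). At an unadjusted p under 0.05, Fasn and Acaca were lower, and 2.34% of all genes were. DESeq2 also called 0 of the 8 at this dose, and 0.233% of all genes. In 0 of the 8 the 10CBD mice lay wholly below the control mice, against 1.64% of all genes. All 8 log2 fold changes were below 0, as were 47.7% of all genes, and their median was -0.33 against 0.012 for all genes tested. At 20 mg, 1 of 8 was called, against 0.303% of all genes (52 of 17163, of which 23 were lower, 0.134%). Unadjusted p-values under 0.05 were found for 5 of 8 (Fasn, Acaca, Acly, Scd1 and Scd2), all lower, against 3.53% of all genes. The log2 fold change was below 0 for 7 of the 8, against 47.5% of all genes, and its median was -0.49 against 0.015 for all genes. Groups without overlap, with 20CBD lower, were seen for 4 of 8 (Fasn, Scd1, Acaca and Acly) against 2.63% of all genes. For each of these 4 the exact two-sided permutation p was 0.0286, the smallest that 4 mice against 4 can give. Groups without overlap always give this value. The same test gave 0.0571 for Scd2 at 20 mg, and 0.114 for Fasn and 0.0571 for Acaca at 10 mg. The doses share the control mice, so the values at 10 and 20 mg are not independent. Several of the 8 genes also varied together over the mice, as given below, so these are not counts of independent genes. The 8 were chosen with earlier results of these data known.

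Between 20CBD and 10CBD, 0 of the 8 genes was called by edgeR at an adjusted p under 0.1, and 0% of all genes tested were. At an unadjusted p under 0.05, 1 of the 8 (Acly) was lower in 20CBD, against 2.84% of all genes, and 1083 genes were found in either direction. DESeq2 called 12 genes in all (0.0699%) and 0 of the 8. Acaca was lower in all 20CBD mice than in all 10CBD mice, as were 1.4% of all genes. The median log2 difference of the 8 genes was -0.21 against -0.0033 for all genes. Scd1 differed by -0.36 (interval -0.89 to 0.17), and by -0.027 without 10CBD 2. Without the same mouse, the Fasn difference was -0.16 instead of -0.29. Scd2 differed by -0.20 (interval -0.55 to 0.16), Elovl6 by 0.15 (interval -0.12 to 0.42) and Me1 by -0.097 (interval -0.47 to 0.28). A difference between the doses was therefore not detected for any of the 8.

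With DESeq2, 4 of the 8 genes were called at 20 mg, all lower, against 0.484% of all genes: Fasn (adjusted p = 0.00215), Acaca (0.0114), Acly (0.0835) and Scd1 (0.0939). When edgeR also fitted the share of mitochondrial reads in each library, 5 were called, against 2.22% of all genes called lower, and the Fasn log2 fold change was -1.06 with an adjusted p of 0.0144. Fasn missed the threshold without the 4 libraries of low mitochondrial share (-0.93, adjusted p = 0.129) and when only the control and 20CBD libraries were fitted (-1.09, adjusted p = 0.158).

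Fat cells express the pathway strongly and can adhere to kidney, so 10 adipocyte markers were followed beside the 8 genes. Of these, 9 passed the filter and all 9 had a log2 fold change below 0 at both doses, with a median log2 fold change of -1.68 at 10 mg and -3.02 at 20 mg. By edgeR, 0 of 9 were called at either dose. The smallest p at 10 mg was that of Adrb3 (log2 fold change -1.84, unadjusted p = 0.0263, adjusted p = 0.812 by edgeR). Adrb3 was low, with means of 1.12 CPM in control mice and 0.33 CPM in 10CBD. At 20 mg it was that of Cidec (-3.02, unadjusted p = 0.00158, adjusted p = 0.253 by edgeR). At 10 mg, 5 of 9 were lower at an unadjusted edgeR p under 0.05, against 2.34% of all genes, and at 20 mg 8 of 9, against 3.53%. The exact two-sided permutation p was 0.0571 (Lipe) to 0.286 (Ucp1) at 10 mg. At 20 mg it was 0.0571 (Retn and Cidea) to 0.429 (Lipe). Lower groups without overlap were seen for 0 of 9 at either dose, against 1.64% and 2.63% of all genes. Markers of the same cell type can move together, so these are not 9 separate results. Below 0 were 47.7% and 47.5% of all genes. Adipoq, which encodes the fat hormone adiponectin, was 10.46, 19.2, 1.06 and 14.5 CPM in control mice. It was 6.98, 5.94, 0.045 and 1.88 CPM in 10CBD and 0, 1.44, 0.12 and 2.597 CPM in 20CBD. Control 3 was low among the controls, and the groups overlapped through it. Plin1, a coat protein of fat droplets, was 0.86 to 5.87 CPM in control mice, 0.32 to 1.85 CPM in 10CBD and 0 to 1.58 CPM in 20CBD. Cfd, the secreted protease adipsin, ranged from 2.92 to 54.9 CPM in control mice, 0.090 to 20.6 CPM in 10CBD and 0 to 11.2 CPM in 20CBD. In 20CBD 3, 5 of the 10 markers had no count.

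The summed level of the 10 markers was 40.1 to 148 CPM in control mice, 28.5 to 67.0 CPM in 10CBD and 21.8 to 45.6 CPM in 20CBD. Lipe made up most of the sum in the lowest libraries, at 20.7 to 37.3 CPM in every library. Without Lipe the sum was 78.4, 114, 10.3 and 82.7 CPM in control mice, 37.4, 38.6, 1.36 and 11.8 CPM in 10CBD and 1.054, 8.26, 0.66 and 21.4 CPM in 20CBD. On this scale too the groups overlapped through Control 3, and the part of the markers in the Fasn result was not tested beyond the fit and correlations given next.

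With the marker sum without Lipe as a covariate, chosen after seeing the data, the Fasn log2 fold change at 20 mg was -0.66 (edgeR adjusted p = 0.9998, unadjusted p = 0.0417). The corresponding values were -0.58 for Acaca, -0.59 for Scd1 and -0.40 for Acly, and 0 of the 8 genes was called in this fit. The covariate itself differed between the groups, so group and marker level cannot be fully told apart with 12 mice.

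Across the 12 mice, log2 CPM of Fasn and the log2 summed level of the 10 markers correlated with Pearson's r = 0.838 (adjusted permutation p = 0.0075) and Spearman's rho = 0.811 (adjusted permutation p = 0.0314). Of all 17163 genes tested, 13 (0.0757%) had an r this high, a count that includes Fasn itself. The tested markers that make up the sum were among the genes counted over. Without the 2 mice farthest from the median marker sum, Control 1 and Control 2, r was 0.840. For Acaca r was 0.715 (adjusted permutation p = 0.0389) and rho 0.587 (adjusted permutation p = 0.196), and r was 0.709 without those mice. Counted in the same way, 0.484% of all genes had an r as high as that of Acaca. Scd2 (r = 0.666, rho = 0.469) and Scd1 (r = 0.650, rho = 0.420) had adjusted permutation p of 0.0657 and 0.0690 for r, and 0.402 for rho in both. Without the 2 farthest mice their r was 0.375 and 0.562, so the relation of Scd2 rests in part on those samples. After the group means were subtracted, r was 0.639 for Fasn (adjusted permutation p = 0.142) and 0.331 for Acaca, and none of the 8 passed 0.1. With Lipe left out of the sum, chosen after seeing the data, r was 0.758 for Fasn, 0.693 for Scd2, 0.669 for Acaca, 0.627 for Acly and 0.576 for Scd1. The adjusted permutation p of these was 0.0260, 0.0527, 0.0543, 0.0871 and 0.115, so that Acly passed 0.1 and Scd1 did not. P-values were adjusted over 16 relations, of the 8 genes with the marker sum and with the mitochondrial share.

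In the same family of 16, Me1 correlated with the mitochondrial share of counts, with r = -0.848 (adjusted permutation p = 0.0076) and rho = -0.762 (adjusted permutation p = 0.0407). The relation was r = -0.898 without the 2 mice farthest from the median share, 10CBD 1 and 10CBD 3. With the group means subtracted it was -0.880. An r this low was found for 4.24% of all genes tested, so many genes shared it. Srebf1 had r = -0.574 and rho = -0.643 (adjusted permutation p = 0.135 and 0.154), and r = -0.781 (adjusted permutation p = 0.0323) with group means subtracted. That last p can be too small, since the permutations did not allow for the 3 group means removed. The other 6 genes had r between -0.131 and 0.200 with the mitochondrial share. The mitochondrial share and the marker sum had r = -0.194 with each other. Mitochondrial counts are part of the total that CPM is scaled to, and the part this plays was not tested.

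**Figure D3:**
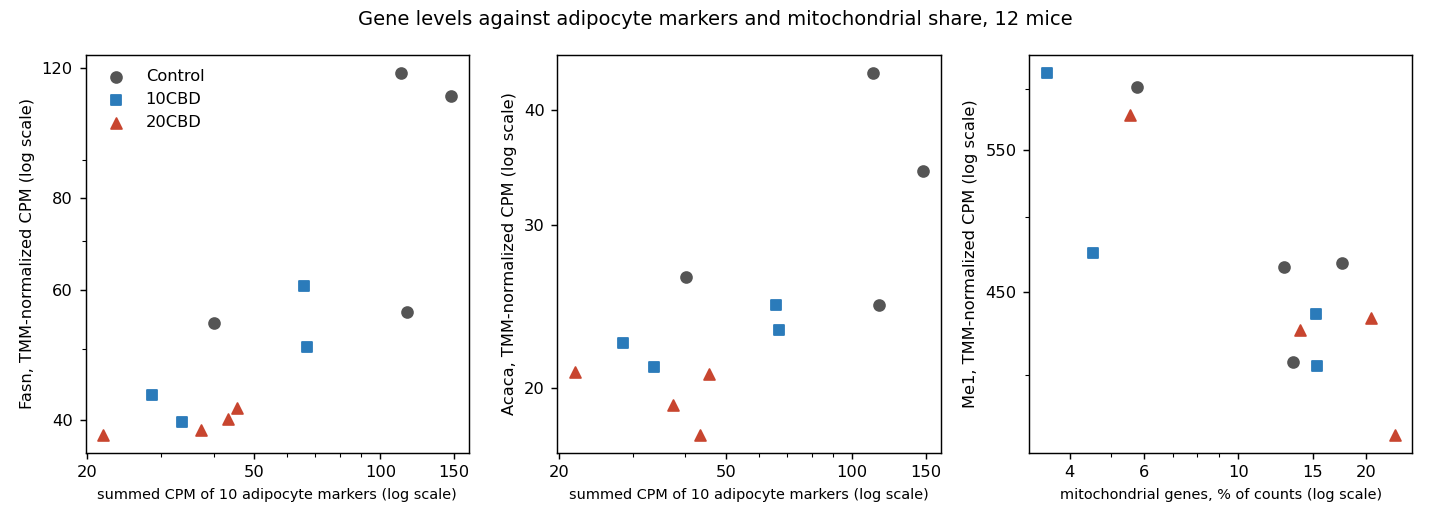
Fasn and Acaca (TMM-normalized CPM, log axes) against the summed CPM of 10 adipocyte markers, and Me1 against the percent of counts on mitochondrial genes, in 12 mice. Fasn rises along the marker sum (r = 0.838), and the 3 highest Me1 points, at 578 to 614 CPM, lie under 10% mitochondrial counts.

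Among the 28 pairs of the 8 genes, 25 had r above 0 over the 12 mice, with a median of 0.41. At an adjusted permutation p under 0.1 for Pearson's r, 11 pairs passed, and 6 passed for rho as well. Fasn and Acaca, the genes of consecutive steps, formed the closest pair, with r = 0.959 (permutation p = 1e-05, the smallest these permutations can give, adjusted 0.00028) and rho = 0.888 (adjusted permutation p = 0.0069). Their r was 0.852 without Control 2 and Control 4, the 2 mice farthest from the median Fasn level, and 0.892 with group means subtracted. Fasn and Scd1 followed (r = 0.850, rho = 0.678, adjusted permutation p = 0.0203 and 0.0709), with r = 0.750 without the same mice. Scd1 and Acaca, and Acaca and Acly, both had r = 0.769 with an adjusted permutation p of 0.0349, and rho of 0.776 and 0.867 (adjusted permutation p = 0.0290 and 0.0069). Their r without the 2 farthest mice was 0.859 and 0.857. Fasn and Scd2 had r = 0.733 (adjusted permutation p = 0.0455) and rho = 0.517 (adjusted permutation p = 0.209), and r was 0.279 without Control 2 and Control 4, so this relation rests on those mice. With the group means subtracted, 1 of 28 pairs passed, Fasn and Acaca, and the median r was 0.19.

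Srebf1 correlated with Fasn at r = 0.607 and rho = 0.392, with Acaca at r = 0.616 and rho = 0.524 and with Me1 at r = 0.608 and rho = 0.587. The adjusted permutation p was 0.0933 for each r, and 0.437, 0.209 and 0.136 for rho. Without Control 2 and 20CBD 2 the r values were 0.346, 0.382 and 0.294, so they rest on those mice. With Acly, Srebf1 had r = 0.097. Elovl6 stood apart from the others, with r between -0.195 and 0.279.

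**Figure D4:**
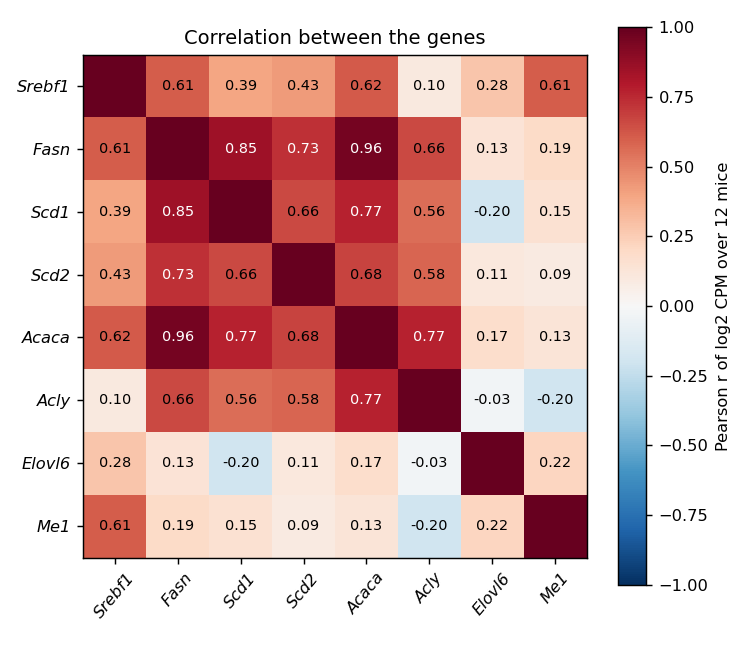
Pearson's r of log2 CPM over 12 mice for each pair of the 8 genes, on a colour scale from -1 to 1. Fasn, Scd1, Scd2, Acaca and Acly form a block with r from 0.56 to 0.96, and Elovl6 and Me1 are pale against it.

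The protein-coding genes most like a member over the 12 libraries were found by the highest Pearson's r of log2 CPM among 13762 genes. For Fasn they were Acaca (r = 0.959), Prkar2b (0.919), Hsd17b12 (0.913), Map3k9 (0.898) and Cox8b (0.877). Hsd17b12 encodes a reductase of very long chain fatty acid elongation. For Scd1 they were Clstn3 (0.939), Kbtbd8 (0.858), Fasn (0.850), Cidea (0.831) and Ssr1 (0.814), of which Cidea is also among the adipocyte markers. For Srebf1 they were Dnaaf9 (0.907), Atp13a1 (0.897), Atp6v1d (0.896), Larp1 (0.885) and Mrps25 (0.884), and Acaca, the closest of the 8 genes, ranked 694th. Srebf1 ranked 363rd for Fasn. These values describe likeness only, over mice of 3 groups.

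The genes that control SREBP1 were described as a list of 17, all of which passed the filter. None was called at either dose or between the doses, and the median log2 fold change was -0.044 at 10 mg and -0.091 at 20 mg. Scap, the escort protein, had means of 46.4 CPM in the control group, 47.1 in 10CBD and 50.2 in 20CBD. Insig1, which retains the precursor and is itself a SREBP target, was 20.6 to 26.4 CPM in control mice, 19.0 to 25.7 in 10CBD and 24.3 to 37.8 in 20CBD. Its log2 fold change at 20 mg was 0.35 with an unadjusted p of 0.039 and an adjusted p of 0.560 by edgeR, opposite in sign to that of Fasn. Insig2, its relative, was at -0.14. The sister gene Srebf2 drives cholesterol synthesis. It was lower in all 20CBD mice (47.3 to 56.2 CPM) than in all control mice (57.2 to 63.2 CPM). Its log2 fold change at 20 mg was -0.18, with an edgeR adjusted p of 0.667. Lower 20CBD groups without overlap were seen for 2 of the 17 genes, against 2.63% of all genes. The other was Mbtps1, with a log2 fold change of -0.26 and an edgeR adjusted p of 0.590. Mlxipl, the carbohydrate-sensing activator of the same enzymes, was at -0.21 and -0.12, and Nr1h3, a sterol-sensing receptor that induces Srebf1, at 0.17 and 0.026. Thrsp, a lipogenic target, was at -0.73 and -0.54 with edgeR adjusted p of 0.882 and 0.791. Acacb, the carboxylase of the mitochondrial surface, was at -0.048 and -0.23.

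In the list of acetyl-CoA and NADPH supply, 9 of 9 genes were tested and 0 were called in any comparison, with medians of 0.035 and -0.0057 at 10 and 20 mg. The citrate carrier Slc25a1 was at 0.036 and 0.18 on the log2 scale, in contrast to Acly, the next step. Acss2, which makes acetyl-CoA from acetate, was at 0.15 and -0.25, and between 20CBD and 10CBD at -0.40 with an unadjusted p of 0.0154 and an adjusted p of 0.758 by edgeR. G6pdx, the entry enzyme of the pentose phosphate pathway, was at -0.25 and 0.011.

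In elongation and desaturation, 10 of 14 listed genes passed the filter and 0 were called, with medians of -0.13 and -0.12. The 4 that did not pass were Elovl3, Elovl4, Scd3 and Scd4. Hsd17b12 was lower in every 20CBD mouse (54.5 to 57.5 CPM) than in every control mouse (63.1 to 73.2 CPM) and every 10CBD mouse. Its log2 fold change at 20 mg was -0.29 (SE 0.10) with an edgeR adjusted p of 0.419. A 20CBD group wholly below control was seen for 1 of these 10 genes, against 2.63% of all genes. A 20CBD group wholly below 10CBD was also seen for 1 of the 10, against 1.4% of all genes. Elovl2, which lengthens polyunsaturated fatty acids, had the smallest p of the list at 10 mg (-0.48, unadjusted p = 0.0351, edgeR adjusted p = 0.830). Elovl5 was at -0.33 and -0.10, Fads1 at -0.11 and 0.0017, and Fads2 at -0.066 and -0.13.

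Triglyceride synthesis had 10 of 11 genes tested and 0 called, with medians of -0.098 and -0.0080. Acsl1, which activates long-chain fatty acids, was at -0.47 and -0.39, with edgeR adjusted p of 0.812 and 0.552. Lpin1, a phosphatidate phosphatase, was at 0.23 and 0.35, the latter with an edgeR adjusted p of 0.533. Gpam, the first acyltransferase of the pathway, was lower in all 10CBD mice than in all control mice (-0.18, edgeR adjusted p = 0.886). Such groups were seen for 1 of these 10 genes, against 1.64% of all genes. At 20 mg Gpam was at -0.16. Dgat2, which carries out the last step, was at 0.15 and 0.20. Agpat2 had the smallest p between 20CBD and 10CBD, at 0.38 with an edgeR adjusted p of 0.860.

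The separate mitochondrial pathway of fatty acid synthesis had 6 of 7 genes tested and 0 called, with medians of 0.0088 and -0.087. Oxsm, its condensing enzyme, was at -0.19 and -0.083, and Ndufab1, its acyl carrier protein, at -0.061 and 0.47 (edgeR adjusted p of 0.981 and 0.590). Of 14 kidney cell type markers, all were tested and 0 were called, with medians of 0.0052 and -0.12. Lrp2, the endocytic receptor of the proximal tubule, had the smallest p at 20 mg. It was 1035 to 1630 CPM in 20CBD against 1891 to 2649 CPM in control mice, with a log2 fold change of -0.76 and an edgeR adjusted p of 0.173. The other markers of that segment were Slc34a1, a phosphate transporter, at -0.30 and -0.23, Miox at -0.27 and -0.37 and Kap at 0.091 and 0.11. Slc12a3, the salt transporter of the distal convoluted tubule, was at -0.21 and -0.48 (edgeR adjusted p of 0.902 and 0.391). Miox, Kap and Slc12a3 were named after their values were seen. Of 6 adrenal cortex markers only Star passed the filter, at 3.57 to 5.39 CPM in every library, and its log2 fold change was -0.23 and -0.17.

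**Figure D5:**
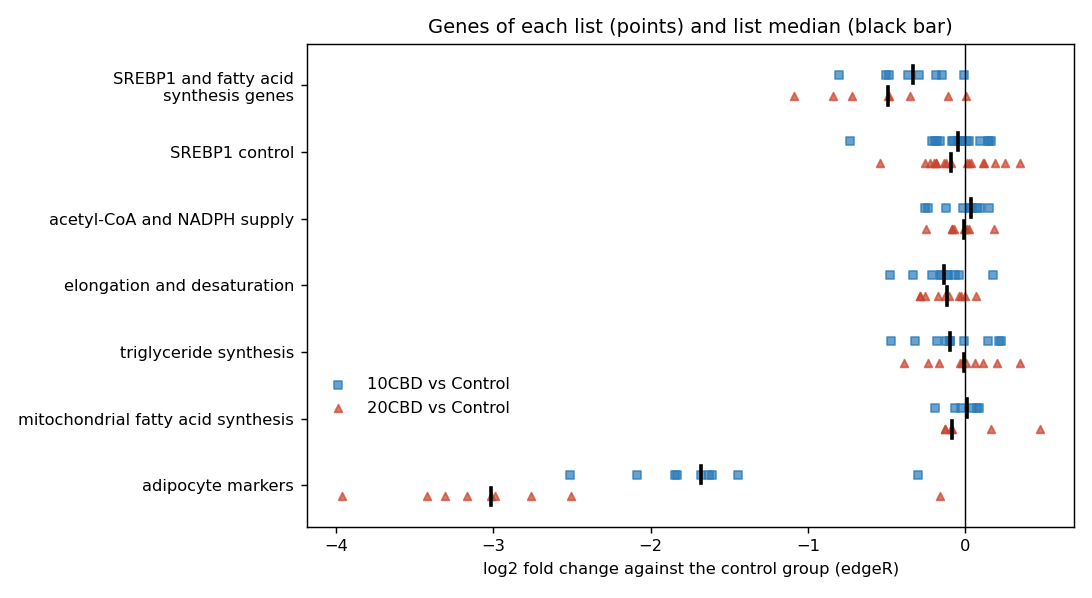
Log2 fold change against the control group of the tested genes of 7 lists (squares 10CBD, triangles 20CBD), with the median of each list as a black bar. The 8 genes have medians of -0.33 and -0.49, the 5 related pathway lists lie near 0, and the adipocyte markers have medians of -1.68 and -3.02.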

How the data were processed

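Paired reads of poly(A) RNA were trimmed with Flexbar, mapped to GRCm39 with STAR 2.7.5c and counted per gene with HTSeq 1.99.2. The raw counts deposited by the authors, with no normalization, were used here, and the annotation release, read strand and molecular identifiers are not given in the sources used here. The 5 summary lines of each file were left out. Reads in no gene or ambiguous between genes were 17.2% to 24.6% of these reads and the counted reads together. Reads that align to several places and the remaining summary lines are not part of this share. Symbols came from GENCODE vM39 (99.0% of IDs matched).

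All 12 libraries were fitted in edgeR 4.0.16 (R 4.3.3; filterByExpr, TMM, quasi-likelihood test) with 3 groups and no covariate. Benjamini-Hochberg adjustment covered all 17163 genes, and a gene was called at an adjusted p under 0.1, the study's threshold. DESeq2 1.42.0, other filters, covariates and left-out libraries were alternatives. Correlations used log2 CPM (prior count 2) and 100000 permutations, two-sided. With group means subtracted, values were still permuted over all 12 mice, without allowing for the 3 means removed. Those permutation p-values can therefore be too small. Fits were tested on simulated data.

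The 8 genes and the lists were chosen with earlier results of these data known. The genes named are the 8, 20 preset genes of the lists, the gene of smallest p of each list and comparison, and the 5 most like Srebf1, Fasn and Scd1. Other genes were named after their values were seen. Sites were read from the GRCm39 genome. Counting error was not separated from the spread between mice in the SDs, coefficients of variation and permutation tests.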

Additional observations from a re-analysis of the deposited data

Results flagged for a closer look

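In each group of 4 mice, the gap between an extreme mouse and its nearest neighbour was compared with the range of the group by Dixon's test, over 27 sets of 4 values, the 8 genes and the adipocyte marker sum in 3 groups. The test is expected to flag about 1 in 20 sets by chance, and it flagged 3. Scd1 was 280.3 CPM in 10CBD 2 against 129 to 143 CPM in the other 10CBD mice. Srebf1 in the same library was the lowest of its group, 14.3 CPM against 18.7 to 19.5 CPM. Scd1 was 118 CPM in 20CBD 4 against 139.9 to 142 CPM in the other 20CBD mice. The library 10CBD 2 had the lowest total of the series, 15417867 counts, and a summed adipocyte marker level of 65.7 CPM, close to the 67.0 CPM of 10CBD 1, in which Scd1 was 129 CPM.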

How the results depend on the processing

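The 5 genes called at 10 mg became 40 with DESeq2, 331 with no filter on low counts, 13 with the mitochondrial share as a covariate, 3 at an adjusted p under 0.05, 2 with the adipocyte covariate, 26 without the 4 libraries under 10% mitochondrial counts, and 2 to 8 without single replicates. In the same order the 52 at 20 mg became 182, 416, 935, 23, 2, 105 and 14 to 54, and 27 with a replicate block. Between the doses, 0 became 12 with DESeq2, 256 with no filter, 29 with the mitochondrial share, and 0 without any single replicate. Of the 8 genes, 1 was called at 10 mg with no filter. At 20 mg, the 1 called became 4 with DESeq2, 3 with no filter, 5 with the mitochondrial share, and 0 at 0.05, with only the groups compared, with the replicate block, with the adipocyte covariate and without the 4 libraries. Leaving out single replicates gave 0 to 1, with Fasn between -1.25 and -0.89. Why these counts moved was not tested. The adipocyte covariate, the removal of the 4 libraries and the sum without Lipe were added after seeing the data. Deviations of same-numbered mice correlated from -0.33 to 0.32. Mice of different numbers were not compared, so whether replicate numbers pair mice was not tested. Signs turned for Scd1 at 10 mg without the 4 libraries (0.025), Elovl6 at 20 mg (-0.0020 with RLE and DESeq2, -0.012 with no filter, -0.00046 with only the groups compared, -0.051 without the 4 libraries), Srebf1 between the doses (-0.0055 with the replicate block, -0.0098 with the adipocyte covariate, -0.061 without the 4 libraries) and Me1 between the doses (0.099 with the mitochondrial share). Without single replicates the ranges were -0.147 to 0.109 for Me1 at 10 mg, -0.036 to 0.052 for Elovl6 and -0.249 to 0.012 for Me1 at 20 mg, and -0.181 to 0.118 for Srebf1 and -0.239 to 0.040 for Me1 between the doses. With group means subtracted, correlations with the marker sum that passed went from 4 to 0 (Acly r = -0.072, against 0.472 without this step and 0.631 with the mean of log2 CPM, where 5 passed) and pairs from 11 to 1.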

Other observations

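Ndufab1 was 87.3 CPM in 20CBD 2 and 36.1 to 44.98 CPM in the other 20CBD mice, beside a log2 fold change of 0.47 at 20 mg. Insig1 was 37.8 CPM in 20CBD 3 and 24.3 to 29.5 CPM in the other 20CBD mice. Me1 and Srebf1 were also highest of their group in 20CBD 3, at 578 and 24.8 CPM, while Acly (74.7 CPM), Scd2 (23.2 CPM), Srebf2 (47.3 CPM) and Acss2 (89.5 CPM) were lowest there. This library had 5.54% mitochondrial counts, the lowest share in 20CBD. Lipe, which encodes hormone-sensitive lipase, was 36.8 CPM in the same library, where Cfd, Plin1, Cidea, Retn and Lep had no count.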
